A study of Homo sapiens with 12 samples.

Results

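The genes of glucose uptake and upper glycolysis were followed at 2 oxygen levels in AsPC-1, a pancreatic cancer cell line of human origin, with and without knockdown of ARNT. The 10 genes were chosen by name and role, with earlier results of these data known. They are SLC2A1, SLC2A3, HK1, HK2, GPI, PFKL, PFKM, PFKP, ALDOA and ALDOC, and all 10 were found by symbol among the 57820 gene IDs of the deposited counts. Poly(A) RNA was measured in 12 libraries, 3 in each of 4 groups. The groups were siControl (a scrambled siRNA) at 21% O2, siARNT (an siRNA directed at ARNT) at 21% O2, siControl at 1% O2 for 24 h and siARNT at 1% O2 for 24 h, with RNA taken 48 h after transfection. All wells were transfected with RNAiMAX lipid reagent and were divided on the following day, so the 21% O2 cells carry the transfection too. Wells were seeded in triplicate, but the labels do not say that the letters A, B and C name those wells, so p-values measure only the spread between these samples, which may be technical.

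The genes encode the steps that bring glucose into the cell and cleave it into trioses. SLC2A1 and SLC2A3 are facilitative glucose transporters, hexokinases trap glucose as glucose 6-phosphate, GPI turns that into fructose 6-phosphate, phosphofructokinase commits it to glycolysis, and aldolase splits the product. ARNT pairs with the HIF alpha subunits, which accumulate when oxygen is low, and the dimers bind DNA at the core letters ACGTG or GCGTG. Glycolytic genes are textbook targets of HIF.

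Total gene counts ran from 38.53 to 84.34 M per library, and 16999 genes, all 10 of these included, had enough counts to be tested. SLC2A3 had enough only through siControl at 1% O2, the group where it was high, so its calls against that group are no separate support. ARNT stood at 60.7 to 72.2 CPM (read counts scaled to library size) in the 6 siControl libraries and at 12.8 to 16 CPM in the 6 siARNT libraries. Of the epithelial markers, KRT8 was at 1180 CPM or more and EPCAM at 794 CPM or more in every library, while KRT7 reached 4.01 CPM at most. The 8 measured markers of other cell types summed to at most 2.71 CPM, with CD3E at 0 counts throughout. 2 libraries stood apart in GC slope, the trend of a library's log2 levels with the GC content of its genes. It was 0.424 per 10 percentage points of GC in replicate B of siARNT at 21% O2 and 0.238 in replicate C of siARNT at 1% O2, against -0.205 to 0.12 in the other 10. The values without these 2 libraries are given beside the results that rest on them. In bulk RNA, a change in RNA per cell and a change in the share of cells that hold the RNA cannot be told apart.

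Promoter sequence is shown because many of the genes moved together with oxygen and ARNT. RefSeq windows (GRCh38.p14, 250 bases before to 50 after a start) were matched for 27 starts of 9 genes. ACGTG and GCGTG were counted on both strands, so that the palindrome CACGTG counts as 2 overlapping matches. 15 of the 27 windows held at least 1 match, beside 48.4% of 35116 RefSeq windows of the same length. ALDOC held 5 matches and the 2 starts of HK2 held 3 and 6, while 10.1% of all windows held 3 or more and 4.4% held 4 or more. The ALDOC window was 66% GC and the HK2 windows 74.3% and 71.7%, and the set of all windows was not matched for GC content. SLC2A1 held a single match, which lies after the start, and the 7 PFKM windows held 0 or 1. So did the 7 windows of HK1, a gene called higher at 1% O2 in siControl. GPI and PFKL held 1 each, the 3 ALDOA windows 1 or 2 and the 4 PFKP windows 0 to 3. Whether matches go with the response to oxygen was not tested. The 250 bases before the start are printed here for ALDOC (chr17:28576896-28577145, minus strand), both starts of HK2 (chr2:74833877-74834126 and chr2:74834920-74835169, plus strand), SLC2A1 (chr1:42958869-42959118, minus strand) and, for 1 of the 7 starts of PFKM, the member that was not higher at 1% O2 (chr12:48105673-48105922, plus strand). They run 5′ to 3′ on the strand of the gene, and capitals mark the matches.
ALDOC: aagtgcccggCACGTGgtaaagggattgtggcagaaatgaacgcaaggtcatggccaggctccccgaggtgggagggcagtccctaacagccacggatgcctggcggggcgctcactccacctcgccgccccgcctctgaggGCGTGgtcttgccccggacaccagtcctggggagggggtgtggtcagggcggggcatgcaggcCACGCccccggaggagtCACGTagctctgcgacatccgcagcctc
HK2 upstream start: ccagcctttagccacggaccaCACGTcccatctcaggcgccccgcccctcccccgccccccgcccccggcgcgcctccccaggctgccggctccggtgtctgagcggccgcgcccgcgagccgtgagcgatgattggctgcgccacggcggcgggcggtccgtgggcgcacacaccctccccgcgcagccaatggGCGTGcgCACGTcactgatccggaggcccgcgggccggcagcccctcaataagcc
HK2 downstream start: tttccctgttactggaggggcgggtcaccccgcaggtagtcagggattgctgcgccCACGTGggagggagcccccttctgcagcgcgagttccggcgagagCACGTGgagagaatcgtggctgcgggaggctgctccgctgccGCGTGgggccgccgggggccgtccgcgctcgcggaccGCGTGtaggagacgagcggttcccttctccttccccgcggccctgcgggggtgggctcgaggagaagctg
SLC2A1: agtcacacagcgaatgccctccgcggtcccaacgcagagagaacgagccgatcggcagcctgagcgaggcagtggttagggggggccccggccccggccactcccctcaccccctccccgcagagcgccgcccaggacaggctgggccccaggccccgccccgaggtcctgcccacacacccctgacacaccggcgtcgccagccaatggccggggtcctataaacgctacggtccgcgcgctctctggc
PFKM: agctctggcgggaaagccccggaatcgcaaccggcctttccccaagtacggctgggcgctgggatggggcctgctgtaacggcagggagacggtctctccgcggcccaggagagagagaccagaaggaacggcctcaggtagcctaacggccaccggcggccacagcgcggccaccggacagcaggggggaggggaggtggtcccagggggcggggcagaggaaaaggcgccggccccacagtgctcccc
A match describes the letters of these windows and is no measurement of binding.

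At 1% O2, siControl cells held more RNA of 8 of the 10 genes, and none was called lower. These were both transporters, both hexokinases, GPI, PFKP and both aldolases, with SLC2A3 in the test only through its counts in this group. In edgeR's quasi-likelihood test, 10.4% of all 16999 tested genes were called higher in this comparison and 14.9% lower, at an adjusted p under 0.05. The median log2 fold change of the 10 genes was 1.12, beside 0.02 over all tested genes. Because the genes were chosen with earlier results known, these counts describe them and are no independent test. With siARNT, 0 of the 10 genes were called for 1% against 21% O2 by edgeR, where 2.21% of all genes were called higher and 1.89% lower. At an unadjusted p under 0.05 there was 1 of the 10, ALDOC, beside 21.2% of all tested genes. DESeq2 called ALDOC, and so did edgeR without replicate B of siARNT at 21% O2 (log2 fold change 0.79, adjusted p 0.0125).

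**Figure D1:**
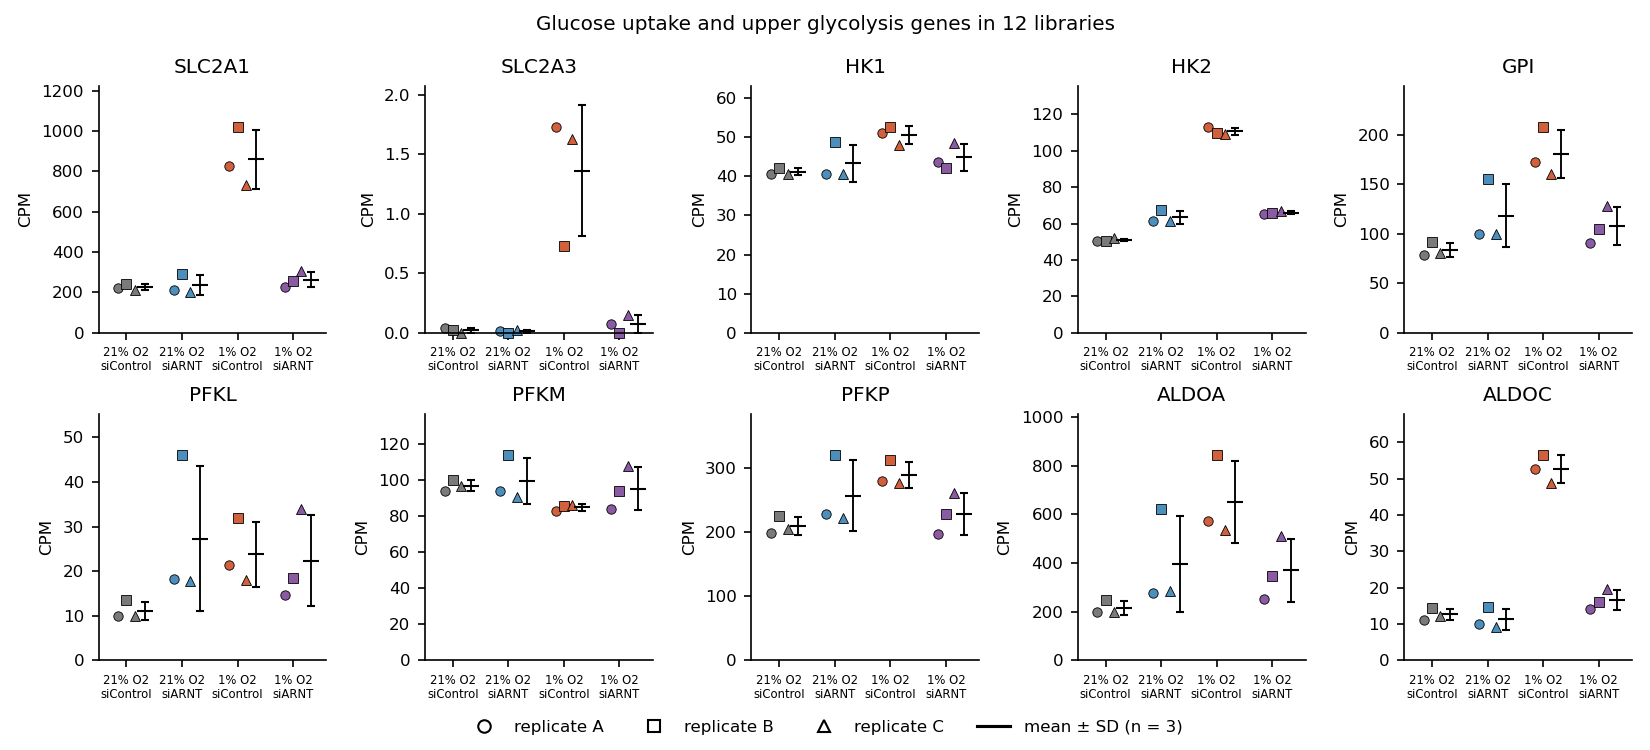
Level of each gene in CPM (y axis, from 0) in the 12 libraries by group (x axis), with a point for each library and the mean ± SD of 3 beside it. SLC2A1, HK2 and ALDOC are high in siControl at 1% O2 alone, while PFKL and ALDOA are also high in replicate B of siARNT at 21% O2 (46.1 and 622 CPM).

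Among the transporters, SLC2A1 (ENSG00000117394.15, GLUT1, the basal glucose carrier of many cells, chr1:42925375-42959176 in GRCh38) stood at 220, 241 and 212 CPM in replicates A, B and C of siControl at 21% O2. At 1% O2 it stood at 827, 1020 and 735 CPM in siControl and at 227, 258 and 304 CPM in siARNT, beside 210, 292 and 204 CPM in siARNT at 21% O2. The 3 siControl libraries at 1% O2 lay above the other 9. The rise in siControl was 3.84-fold (log2 fold change 1.94, SE 0.164, edgeR adjusted p 1.35e-05). With siARNT the log2 change with oxygen was 0.16 (SE 0.159, edgeR adjusted p 0.588). At 1% O2 the siARNT cells had 3.27-fold less SLC2A1 than siControl (log2 fold change -1.71, SE 0.163, edgeR adjusted p 1.79e-05).

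SLC2A3 (ENSG00000059804.11, GLUT3, a high-affinity carrier known from neurons, chr12:7919230-7936275) was near the floor of detection at 21% O2. Its counts were 3, 1 and 0 in siControl and 1, 0 and 1 in siARNT at 21% O2. At 1% O2 they were 115, 34 and 76 in siControl and 4, 0 and 6 in siARNT. Pooled over the libraries of a group, SLC2A3 relative to library size was 61.4 times higher at 1% than at 21% O2 in siControl, with an exact 95% interval of 23.7 to 227 that covers counting error only. The same ratio was 7.12 in siARNT (interval 1.52 to 66.8, from 2 and 10 counts), and edgeR gave an adjusted p of 8.87e-05 in siControl and 0.262 in siARNT. The log2 fold change that edgeR fitted in siControl, 5.78, ran from 5.3 to 6.81 with 1 library left out, the highest without replicate A at 21% O2, which held 3 of the 4 counts of that group. Even at its highest, SLC2A3 reached 1.73 CPM. SLC2A14, a close copy of SLC2A3 with which reads could be shared, held at most 1 count in a library. How reads matching both copies were counted is not given, so this does not show whether SLC2A3 lost reads.

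Hexokinase was measured as HK1 (ENSG00000156515.17, the widely expressed form, chr10:69269984-69401884) and HK2 (ENSG00000159399.5, the inducible form of muscle and tumours, chr2:74833981-74893359). HK2 stood at 50.6, 50.5 and 51.8 CPM in siControl and 61.2, 67.7 and 61.5 CPM in siARNT at 21% O2. It stood at 113, 110 and 109 CPM in siControl and 65.5, 65.7 and 66.9 CPM in siARNT at 1% O2. The groups of siControl did not overlap with each other or with those of siARNT, and HK2 had the smallest SE of the 10 genes. It rose 2.18-fold in siControl (log2 fold change 1.12, SE 0.054, edgeR adjusted p 1.81e-07). At 21% O2 it was 1.24-fold higher with siARNT than with siControl (edgeR adjusted p 0.00207), and at 1% O2 it was 1.68-fold lower (edgeR adjusted p 1.48e-06). HK1 moved little, from 40.7, 42.2 and 40.7 CPM to 51, 52.6 and 48 CPM in siControl. In siARNT it stood at 40.5, 48.9 and 40.5 CPM at 21% O2 and at 43.7, 42.2 and 48.6 CPM at 1% O2, and these groups overlapped. The 1.23-fold rise of HK1 in siControl was called (edgeR adjusted p 0.0212), but leaving out replicate A or C of siControl at 21% O2, or A or B of siControl at 1% O2, took the adjusted p to between 0.0574 and 0.0614.

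GPI (ENSG00000105220.10, chr19:34359480-34402413), which isomerises glucose 6-phosphate, stood at 78.4, 91.3 and 80.6 CPM in siControl at 21% O2 and at 173, 208 and 161 CPM at 1% O2. In siARNT it stood at 99.5, 155 and 100 CPM at 21% O2 and at 90.5, 105 and 128 CPM at 1% O2. The siControl groups did not overlap, and the siARNT groups did. GPI rose 2.17-fold in siControl (log2 fold change 1.12, SE 0.18, edgeR adjusted p 0.000996). At 1% O2 it was 1.68-fold lower with siARNT than with siControl (edgeR adjusted p 0.00887).

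The 3 phosphofructokinase genes did not move alike. PFKP (ENSG00000067057.12, the platelet form, chr10:3066333-3137712) went from 199, 226 and 205 CPM to 280, 313 and 277 CPM in siControl. It was called at 1.38-fold (log2 fold change 0.47, SE 0.139, edgeR adjusted p 0.0288), a call that scaling by total counts (adjusted p 0.0501) or leaving out replicate A or C at 21% O2 or A or B at 1% O2 (0.0562 to 0.0892) did not keep. In siARNT it stood at 228, 321 and 223 CPM at 21% O2 and at 197, 228 and 262 CPM at 1% O2. PFKL (ENSG00000141959.12, the liver form, chr21:44300051-44327376) stood at 9.98, 13.5 and 9.89 CPM in siControl at 21% O2 and at 21.5, 32 and 18 CPM at 1% O2. In siARNT it stood at 18.2, 46.1 and 17.7 CPM at 21% O2 and at 14.7, 18.4 and 33.9 CPM at 1% O2. The siControl groups did not overlap, but the log2 fold change of 1.1 had an SE of 0.408 and was not called (edgeR adjusted p 0.0717). With the replicate letter as a block it was called (1.08, adjusted p 0.0415), but not with a block by siRNA and letter (1.07, adjusted p 0.0554), and it was called when only the 6 siControl libraries were fitted (1.09, adjusted p 0.00262).
PFKM (ENSG00000152556.11, the muscle form, chr12:48105139-48146404) was the 1 gene that was not higher. It stood at 93.8, 100 and 96.9 CPM at 21% O2 and 82.8, 85.7 and 86.2 CPM at 1% O2 in siControl, a log2 fold change of -0.19 (SE 0.099, edgeR adjusted p 0.183). Its siARNT libraries held 94, 114 and 90.7 CPM at 21% O2 and 84.2, 93.7 and 108 CPM at 1% O2. The siControl groups did not overlap, and with only the 6 siControl libraries fitted the change of -0.2 was called (edgeR adjusted p 0.012).

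Both aldolases rose. ALDOA (ENSG00000149925.12, the abundant form, chr16:30064164-30070457) stood at 197, 248 and 200 CPM in siControl at 21% O2 and at 574, 844 and 536 CPM at 1% O2, a 3.03-fold rise (log2 fold change 1.6, SE 0.335, edgeR adjusted p 0.0047). In siARNT it stood at 276, 622 and 285 CPM at 21% O2 and at 254, 345 and 509 CPM at 1% O2, where replicates B and C in turn were the libraries of high GC slope. The log2 change with oxygen in siARNT was -0.1 (SE 0.327, edgeR adjusted p 0.889), and 0.1 without those 2 libraries (adjusted p 0.812).
ALDOC (ENSG00000109107.9, the form known from brain, chr17:28573115-28577264) had the largest rise among the genes above 2 CPM. It went from 11.2, 14.4 and 12.3 CPM to 52.7, 56.5 and 48.7 CPM in siControl, 4.17-fold (log2 fold change 2.06, SE 0.175, edgeR adjusted p 1.04e-05). In siARNT it went from 9.93, 14.6 and 9.22 CPM to 14.2, 16 and 19.5 CPM, with a log2 fold change of 0.56 (SE 0.172, edgeR adjusted p 0.0905). Without the 2 libraries of high GC slope that change was 0.66 and was called (adjusted p 0.0143).

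**Figure D2:**
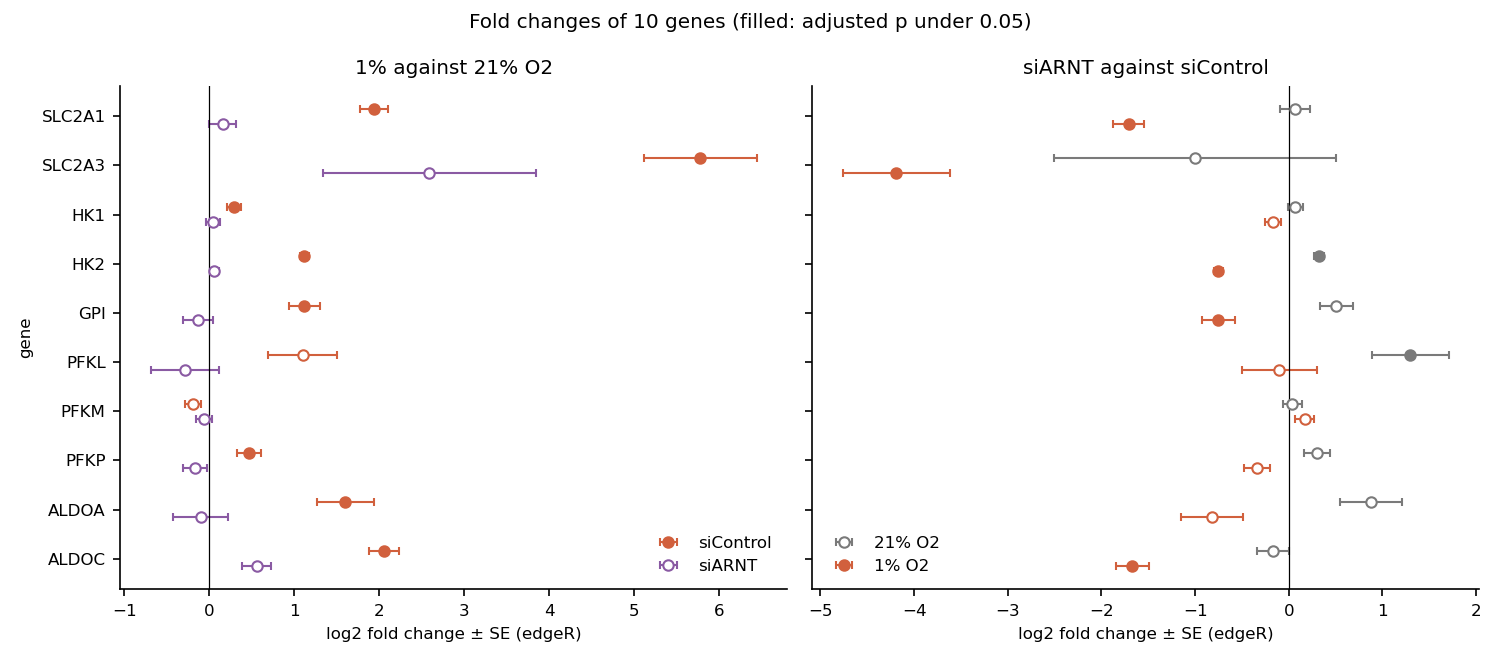
Log2 fold change ± SE (x axis, edgeR) of each gene (y axis) for 1% against 21% O2 in siControl and siARNT (left) and for siARNT against siControl at 21% and 1% O2 (right), with filled points for an adjusted p under 0.05. In siControl 8 of the 10 points for oxygen are filled, and in siARNT none is.

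The effect of the knockdown was compared at each oxygen level. At 1% O2, 5 of the 10 genes were lower with siARNT than with siControl, namely SLC2A1, SLC2A3, HK2, GPI and ALDOC, and none was called higher. Of these, SLC2A3 was in the test only through its counts in siControl at 1% O2. Over all tested genes 14.7% were called lower and 14.4% higher by edgeR. The fall of ALDOC was 3.18-fold (log2 fold change -1.67, SE 0.173, edgeR adjusted p 2.74e-05), and that of SLC2A3 was 19.3-fold by pooled counts (exact 95% interval 10.3 to 40.8, counting error only; edgeR adjusted p 2e-04). The fitted log2 fold change of SLC2A3, -4.19, was -4.98 without replicate C of siARNT at 1% O2. ALDOA (-0.82, adjusted p 0.086) and PFKP (-0.34, adjusted p 0.0905) had groups that did not overlap but were not called. Both were called without replicate C of siARNT at 1% O2 (-1.12, adjusted p 0.0374, and -0.45, adjusted p 0.0472). Without the 2 libraries of high GC slope 8 of the 10 genes were called lower, beside 16.2% of all genes in that fit, with HK1 (-0.23, adjusted p 0.00979), PFKP (-0.44, adjusted p 0.000841) and ALDOA (-1.11, adjusted p 9e-04) added.

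At 21% O2, 2 of the 10 genes were higher with siARNT, HK2 and PFKL, and none was called lower, beside 9.42% called higher and 10.8% lower over all tested genes. PFKL was 2.46-fold higher with siARNT (log2 fold change 1.3, SE 0.408, edgeR adjusted p 0.0454). Without replicate B of siARNT at 21% O2 the log2 fold change of PFKL was 0.69 and was not called (adjusted p 0.168), and leaving out any 1 of the siControl libraries at 21% O2 also ended the call (0.0702 to 0.146), as did fitting with no filter on low counts (0.162) or only the 6 libraries at 21% O2 (0.0603). GPI (log2 fold change 0.51, adjusted p 0.0655) and ALDOA (0.88, adjusted p 0.0775) had groups that did not overlap. GPI was called without replicate A or C of siARNT at 21% O2 (adjusted p 0.0438 and 0.0487), and ALDOA without replicate A (0.0481). Without replicate B, the library of high GC slope, the log2 fold change was 0.25 for GPI (adjusted p 0.24) and 0.37 for ALDOA (0.341). With the replicate letter as a block, 4 of the 10 genes were called higher, beside 14.8% of all genes in that fit, GPI (0.49, adjusted p 0.0316) and ALDOA (0.8, adjusted p 0.0448) being added. Without the 2 libraries of high GC slope ALDOC was called lower (-0.4, adjusted p 0.0225).

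The difference between the 2 oxygen responses was itself tested as an interaction, the log2 change with 1% O2 in siARNT minus that in siControl. It was called negative for 4 of the 10 genes, SLC2A1 (-1.78, SE 0.226, edgeR adjusted p 0.00147), HK2 (-1.06, SE 0.075, adjusted p 1.86e-05), GPI (-1.25, SE 0.253, adjusted p 0.0203) and ALDOC (-1.5, SE 0.242, adjusted p 0.00572). Over all tested genes 2.19% were called negative and 2.49% positive. The call of GPI was lost with no filter on low counts (adjusted p 0.0783), and on leaving out replicate A or C of siControl at 21% O2, replicate B of siControl at 1% O2 or replicate B of siARNT at 1% O2 (0.0516 to 0.0647). ALDOA had an interaction of -1.7 (SE 0.466, edgeR adjusted p 0.0654) and PFKP of -0.64 (SE 0.197, adjusted p 0.0946), and both were called without replicate C of siARNT at 1% O2 (0.0318 and 0.0486). Without the 2 libraries of high GC slope 7 of the 10 were called, all negative, beside 3.53% of all genes in that fit, with ALDOA (-1.49, adjusted p 0.00694), PFKP (-0.54, adjusted p 0.0115) and PFKL (-1.21, adjusted p 0.0318) added. HK1 (-0.24, adjusted p 0.261), PFKM (0.13, adjusted p 0.605) and SLC2A3 (-3.19, SE 2.248, adjusted p 0.431) were not called.

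The levels of PFKL, the gene with the highest GC content of the 10 (64.1%), and of ALDOA were set against the GC slope of each library. In siARNT, each had its highest level at 21% O2 in replicate B and at 1% O2 in replicate C, which are the 2 libraries of high slope. In siControl too, the library of highest slope in each group, replicate B (-0.036 at 21% and 0.12 at 1% O2), had the highest levels. These were 13.5 and 32 CPM for PFKL and 248 and 844 CPM for ALDOA. Of the other members, all but SLC2A3 also had their highest siARNT levels in those 2 libraries of high slope, HK2 included (67.7 and 66.9 CPM). Replicate B of siControl was likewise the highest at both oxygen levels for SLC2A1, HK1, GPI, PFKP and ALDOC, but not for SLC2A3, HK2 or PFKM. At 21% O2 the slopes ran from -0.205 to -0.036 in siControl and from 0 to 0.424 in siARNT, so that contrast is also one of slope. HK2 stayed between 61.2 and 67.7 CPM over the 6 siARNT libraries. With a correction for GC content in each library, 9 of the 10 genes were called higher and 1 lower for oxygen in siControl, beside 18.1% and 24% of all genes in that fit, PFKL at 0.8 (adjusted p 0.000813) and PFKM at -0.2 (adjusted p 0.00874). The source of the GC slopes was not tested.

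**Figure D3:**
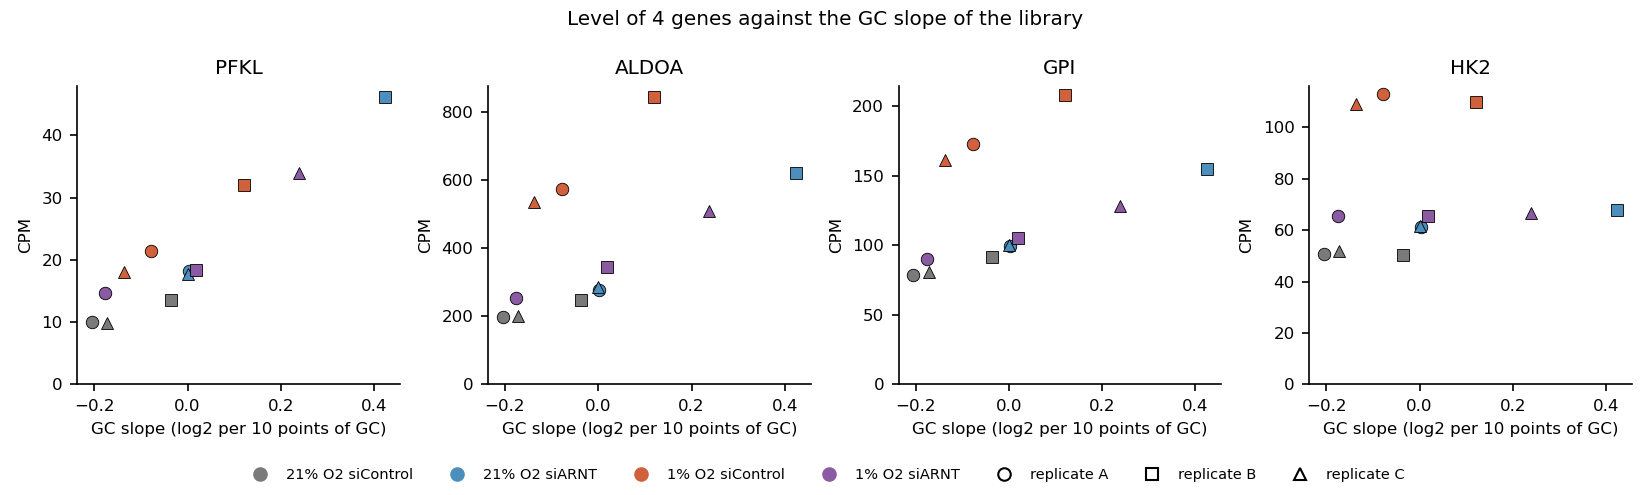
CPM (y axis, from 0) of PFKL, ALDOA, GPI and HK2 against the GC slope of the library (x axis, log2 per 10 percentage points of GC), with a point for each of the 12 libraries, coloured by group and shaped by replicate. The points at slopes of 0.424 and 0.238 are replicate B of siARNT at 21% O2 (PFKL 46.1 CPM) and replicate C of siARNT at 1% O2 (PFKL 33.9 CPM).

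Levels can be compared between the genes only per length, and here CPM was divided by the kb of merged exons. The order and the overlaps between genes hold for this length alone and were not checked with another. Merged exons and the longest coding transcript differ unequally, at 10680 and 4341 bases for GPI, 3916 and 1672 for ALDOA and 6064 and 5772 for HK2. In siControl at 21% O2, ALDOA (54.9 ± 7.27 CPM per kb; SD, n = 3), SLC2A1 (47.5 ± 3.25) and PFKP (43.4 ± 2.95) led, and neighbours in this order overlapped. PFKM (13.3 ± 0.457) came next, followed by HK2 (8.41 ± 0.12) and GPI (7.81 ± 0.646), whose ranges overlapped. Below them came HK1 (6.54 ± 0.137), ALDOC (4.32 ± 0.565), PFKL (1.25 ± 0.23) and SLC2A3 (0.00336 ± 0.00328), with no overlap between neighbours. In siControl at 1% O2, SLC2A1 (182 ± 30.9 CPM per kb) and ALDOA (166 ± 42.9) overlapped at the top, and ALDOC (18 ± 1.34) had come level with HK2 (18.3 ± 0.313) and GPI (16.9 ± 2.27). With siARNT at 1% O2 the order of the 10 genes was that of siControl at 21% O2.

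Within each family the summed level per kb was split into paralog shares, which are given as a description, with no test. SLC2A1 made up almost all of the transporter pair, with SLC2A3 at 0.00701% ± 0.00704 (SD, n = 3) in siControl at 21% O2 and 0.129% ± 0.064 at 1% O2. HK2 held 56.2% ± 0.771 of the HK1 and HK2 pair in siControl at 21% O2 and 69.5% ± 0.937 at 1% O2. In siARNT it held 60.4% ± 1.24 at 21% O2 and 60.5% ± 1.51 at 1% O2, so that the siControl groups lay apart on either side while the siARNT groups overlapped. HKDC1, a further hexokinase gene that is outside the 10, stood at 41.2 ± 1 CPM per kb in siControl at 21% O2 and 40 ± 0.745 at 1% O2, above HK1 and HK2 together (14.9 ± 0.119 and 26.3 ± 0.564).

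PFKP was the main phosphofructokinase in every group, with 74.9% ± 0.414 in siControl at 21% O2, 80.8% ± 0.159 in siControl at 1% O2, 76.1% ± 0.105 in siARNT at 21% O2 and 75.4% ± 0.807 in siARNT at 1% O2. The share of PFKM moved the other way in siControl, from 22.9% ± 0.674 to 15.7% ± 0.973, and was 19.7% ± 1.56 and 20.8% ± 0.502 in siARNT. PFKL held between 1.96% and 5.92% in every library. Of the aldolase pair, ALDOC held 7.3% ± 0.294 in siControl at 21% O2 and 9.99% ± 1.53 at 1% O2. With siARNT it held 3.92% ± 0.8 and 5.88% ± 1.04, and the groups of siControl lay above those of siARNT. Both sides of this ratio were at their highest siARNT levels in the libraries of high GC slope. ALDOA stood there at 622 CPM at 21% O2 and 509 CPM at 1% O2, and ALDOC at 14.6 and 19.5 CPM.

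**Figure D4:**
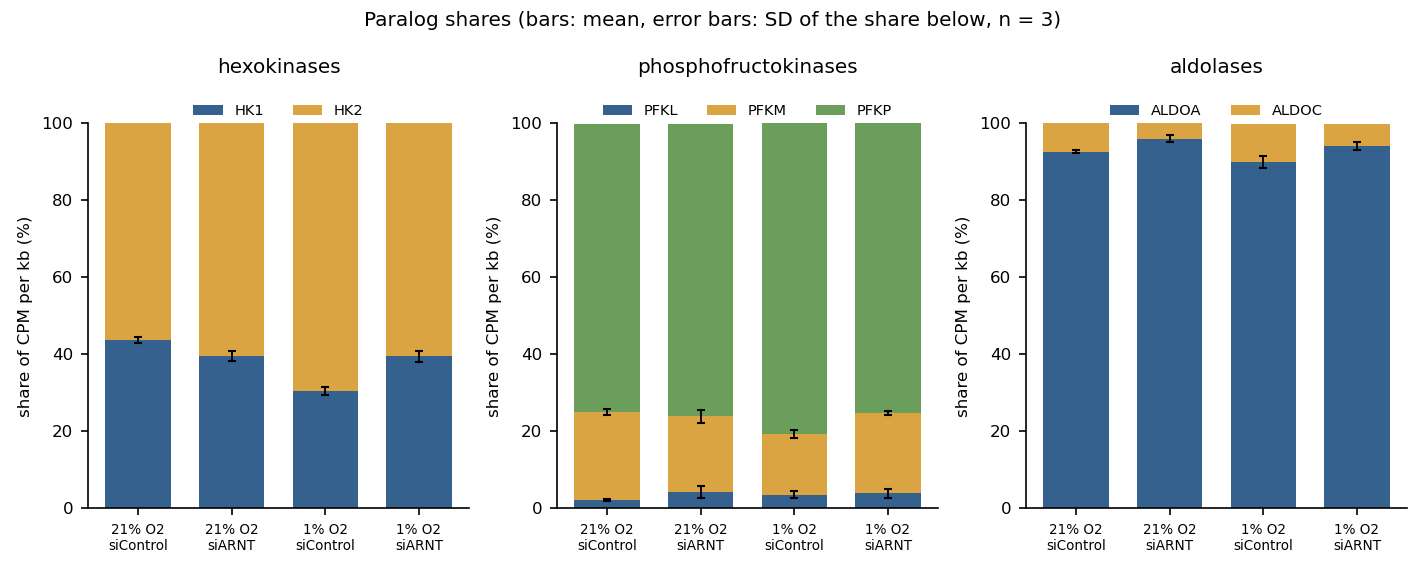
Share of the summed CPM per kb of merged exon (y axis, %) held by each paralog in the hexokinase, phosphofructokinase and aldolase families in the 4 groups (x axis), with bars for the mean and error bars for the SD of the share below them (n = 3). HK2 takes 69.5% of its pair and PFKP 80.8% of its family in siControl at 1% O2, the highest of the 4 groups.

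Isoform shares were read from the deposited splicing events, which give reads per splice junction. The files list 44 events in 7 of the 10 genes and none in SLC2A1, SLC2A3 or HK2. The 8 events that held at least 20 reads in each library and at least 5% of reads in the rarer form were in ALDOA (5), PFKM (2) and GPI (1). In the other events of HK1 and PFKL the rarer form held no more than 1.07% of reads. None of the 5 events of ALDOC was tested. There the rarer form held up to 45.3% of reads, in an event whose lowest library had 17, so a change in it could not be judged. None of the 8 was called in any of the 5 comparisons, by edgeR for junctions or by limma for retained introns, and none was called with limma on the inclusion share. At an unadjusted p under 0.05 there were 3 of 8 for oxygen in siControl, 1 of 8 for siARNT at 21% O2 and 0 in the other 3 comparisons. These were junction events, of which 8.31% and 11.4% over all genes passed that threshold in the same comparisons, and 2 of the 3 share junctions. Calls were rare over all events as well. Of 12481 junction events, 0.024% were called for oxygen in siControl, 0.0481% for oxygen in siARNT, 0.897% for siARNT at 21% O2, 0.945% for siARNT at 1% O2 and 0.00801% for the interaction. Of 1894 retained introns, the shares were 0.422%, 0%, 0.211%, 1% and 0%.

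An exon of 93 bases in PFKM, a length that 2 coding exons of PFKM share in GENCODE 29, was included in 72.4%, 76.8% and 73.7% by junction reads in siControl at 21% O2. At 1% O2 it was included in 67.8%, 62.1% and 64.8%, so these groups did not overlap. The log2 change of the ratio of inclusion to skipping was -0.64 (SE 0.209, unadjusted p 0.00786, edgeR adjusted p 0.385), a difference that did not pass over 12481 events. In siARNT the exon was included in 72.3%, 73.5% and 72.6% at 21% O2 and in 69.2%, 58.9% and 70.3% at 1% O2 (-0.44, SE 0.208, edgeR adjusted p 0.733). The interaction was 0.2 (SE 0.295, adjusted p 0.989). These shares average 2 inclusion junctions of unequal depth, with 281, 195 and 205 reads upstream and 144, 103 and 114 downstream in siControl at 21% O2. A second tested event of PFKM uses the same junctions and is not independent of the first. It sets skipping against the downstream junction alone, where skipping took 33.2% ± 2.8 (SD, n = 3) in siControl at 21% O2 and 43.9% ± 1.08 at 1% O2.

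In ALDOA the deepest tested event compared 2 donor sites (5′ splice sites) that join the same next exon, with 0 to 4 reads in a library that joined the 2 exons holding them to each other. In the coordinates of the file, whose build is not named, the upstream donor ends an exon at chr16:30075745-30075826. The downstream donor ends at base 30077248, for which the files list an exon of 52 bases in this event and one of 194 bases in another. Neither was shown to be a first exon, and spliced reads also entered an exon at the upstream exon's start, 1412, 816 and 916 in siControl at 21% O2. The downstream donor took 9.52%, 11.3% and 9.88% of the junction reads of both donors in siControl at 21% O2. It took 12.9%, 19.2% and 11.8% in siControl at 1% O2, and the groups did not overlap. In siARNT it took 13.2%, 21.3% and 14.6% at 21% O2 and 11%, 12.8% and 20.9% at 1% O2. The highest library of each group, in siControl and siARNT alike, was the one with the highest GC slope of that group. As deposited, the event changed by a log2 ratio of 0.56 with oxygen in siControl (SE 0.336, edgeR adjusted p 0.743). Junction reads from the upstream donor, not scaled for depth, were 2833, 1711 and 1925 in siControl at 21% O2 and 5751, 4044 and 4122 at 1% O2. In GPI the downstream of 2 alternative 3′ splice sites held 9.09%, 9.68% and 3.33% of reads in siControl at 21% O2 and 8.21%, 9.73% and 9.59% at 1% O2 (0.25, SE 0.489, edgeR adjusted p 0.943). These groups overlapped, at 96.2 reads per library on average.

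**Figure D5:**
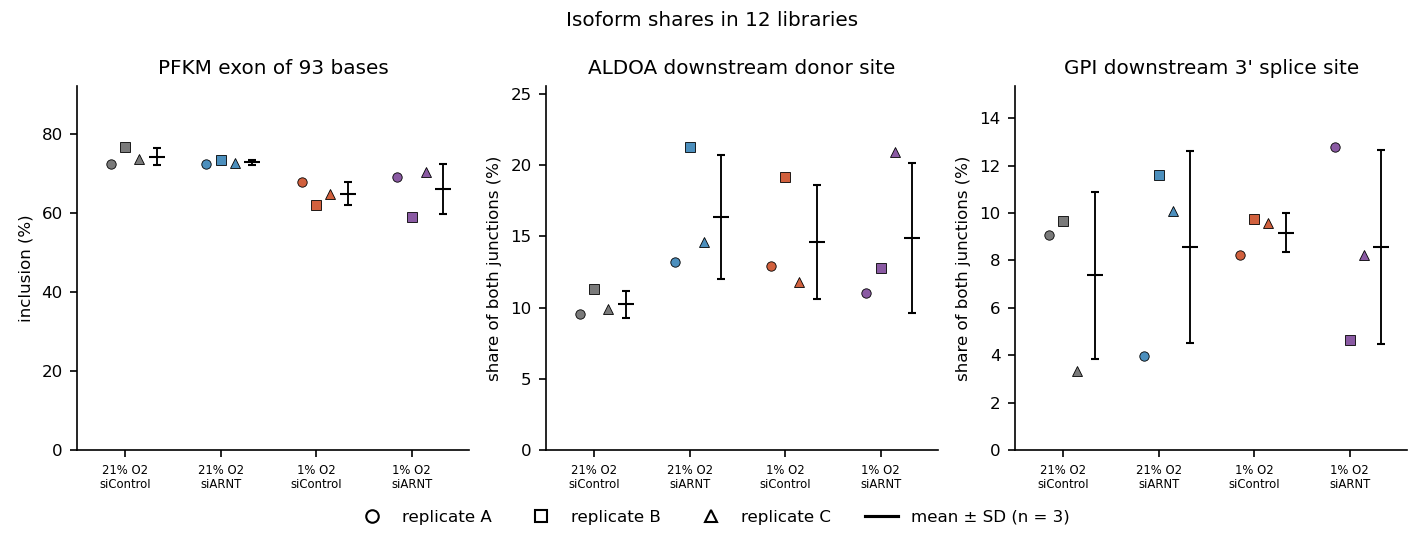
Inclusion of the PFKM exon, share of the downstream donor site of ALDOA and share of the downstream 3′ splice site of GPI (y axes, % of junction reads, from 0) in the 12 libraries by group (x axis), with a point for each library and the mean ± SD of 3. The 3 siControl libraries at 1% O2 lie below those at 21% O2 for PFKM (62.1 to 67.8% against 72.4 to 76.8%), while the groups of GPI overlap.

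Of 40 other genes of glucose transport, hexose phosphate turnover and its exits, 39 were matched to an ID and 25 were tested. For oxygen in siControl 6 (24%) were called higher and 4 (16%) lower by edgeR, beside the 10.4% and 14.9% of all genes, with a median log2 fold change of -0.01. Ranked among those that averaged 1 CPM or more, as everywhere in this list, the 3 with the largest rises were PFKFB4 (3.51) and PFKFB3 (0.85), which make and break the phosphofructokinase activator fructose 2,6-bisphosphate, and SLC2A13 (0.99), a myo-inositol carrier. The largest falls were GPD1 (-1.43) and GPD1L (-0.76), glycerol 3-phosphate dehydrogenases, and TIGAR (-1.01), which lowers fructose 2,6-bisphosphate. For oxygen in siARNT 1 (4%) was called higher and 2 (8%) lower, with a median of -0.15. SLC5A1, a sodium-glucose cotransporter, stood at 1.23 and ARRDC4, an arrestin-family gene related to TXNIP, at -0.73.

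With siARNT at 1% O2, 6 of the 25 (24%) were called higher and 8 (32%) lower. GPD1 (1.52), SLC5A1 (1.17) and TIGAR (0.66) led the rises, and PFKFB4 (-2.82), ARRDC4 (-1.07) and PFKFB3 (-0.97) the falls. At 21% O2 the called shares, 8% higher and 12% lower, were near the 9.42% and 10.8% of all genes. The 2 higher genes were SLC2A8 (0.8) and HKDC1 (0.31), and the 3 lower were FBP1 (-0.41), which reverses the phosphofructokinase step, PFKFB2 (-0.37) and ARRDC4 (-0.35). In the interaction 6 (24%) were called negative, led by PFKFB4 (-2.99), PGM1 (-0.88), which links glucose 6-phosphate to glycogen, and PFKFB3 (-0.84), and GPD1L (0.61) was called positive. GCKR, the glucokinase regulator, lay under the level limit at a mean of 0.902 CPM and is named here after its values were seen. Its log2 change was -0.93 for oxygen in siARNT (edgeR adjusted p 0.036), -1.65 for siARNT at 1% O2 (0.000112) and -1.39 in the interaction (0.0191). The medians of the list were 0.12 at 1% O2, 0.06 at 21% O2 and -0.09 in the interaction, beside 0.02, 0.01 and -0.02 over all tested genes.

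As a description over the 12 libraries, which share groups, depth and GC slope, the 9 members other than SLC2A3, which averaged under 1 CPM, were set against all other tested genes by Pearson's r of log2 CPM. SLC2A1 was most like FOS (0.996), PFKFB4 (0.994) and C8orf58 (0.992). HK2 was most like CA9 (0.995), PGAM1 (0.984) and PLOD2 (0.975, itself at a mean of 0.436 CPM), and ALDOC most like BHLHE40 (0.992), CHMP4B (0.991) and NDRG1 (0.99). ALDOA was most like GAPDH (0.995), MGRN1 (0.989) and DNM2 (0.989), and PFKP most like TPI1 (0.989), BCKDK (0.988) and TMEM176A (0.986). GPI went with ALKBH5 (0.987), HOXC6 (0.978) and SLC6A8 (0.977). PFKL went with SPINT1, TLE5 and GALNS (each 0.987). HK1 went with WHRN (0.982), JUN (0.97) and BAZ2A (0.969), and PFKM with EPHX2 (0.969), ACAD9 (0.958) and PATZ1 (0.951). Among the members, the highest correlations were those of SLC2A1 with ALDOC (0.98) and GPI with ALDOA (0.98), and the lowest was that of HK2 with PFKM (-0.53). No pseudogene of a member reached 1 CPM in a group mean, the highest being ALDOAP2 at 0.817 CPM.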

How the data were processed

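Counts of reads per gene ID were deposited for each library, and reads naming no gene (22.71 to 25.2% of a library) were left out. Per the submitters' processing notes, Trimmomatic, STAR 2.4.2a and GRCh38.p10 were used. The counter's settings, strand use included, are not given in the sources used here. The deposited event files hold junction read counts, mean intron coverage (a signal) and, per the file headers, a fraction that gives the inclusion form's share. Only 0.47% of 24368 skipped exons lay at the same GRCh38 position, so event coordinates are printed as deposited.

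Genes were tested with edgeR 4.0.16 (TMM, filterByExpr, robust quasi-likelihood, all 12 libraries, 1 mean per group, Benjamini-Hochberg over 16999 genes, called under 0.05). SE is the log2 fold change over the root of F. CPM uses TMM scaling. Junction events were tested with edgeR on inclusion against exclusion reads, and retained introns with limma 3.58.1 (0.5 added to each form). The fits were tested on simulated data. Alternatives were DESeq2 1.42.0, other scaling, filters, GC correction, blocks, event tests and leaving out libraries. The members and lists were chosen with earlier results of these data known. Named were all members, the 3 largest called list genes per direction and comparison at a mean of 1 CPM or more, the 3 genes most like each member, and per gene the deepest tested event. Gene coordinates and exon lengths are from GENCODE 29. ALDOA donor-site shares were added after the data were seen.

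Same-letter deviations from the group means correlated at 0.49 to 0.74 for oxygen in siControl and 0.39 to 0.88 for siARNT at 21% O2, so letters were treated as pairing there. Pairing is not shown by this, because the different letters A and C also correlated, at 0.41 and 0.3 for oxygen in siControl and 0.76 and 0.49 for siARNT at 21% O2. The same-letter values fell to -0.85 and -0.72 in the other 2 comparisons, where letters were not treated as pairing. Library totals ran from 38.53 to 84.34 M, and intervals cover counting error only.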

Additional observations from a re-analysis of the deposited data

Results flagged for a closer look

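4 of the 10 genes responded to 1% O2 differently in siARNT and siControl cells by the interaction term of edgeR. The log2 change with oxygen in siARNT minus that in siControl was -1.78 for SLC2A1 (edgeR adjusted p 0.00147), -1.06 for HK2 (1.86e-05), -1.25 for GPI (0.0203) and -1.5 for ALDOC (0.00572). Over all tested genes 2.19% were called negative and 2.49% positive. The call of GPI was lost with no filter on low counts and on leaving out any 1 of 4 libraries. Without the 2 libraries of high GC slope, SLC2A1, HK2, GPI and ALDOC were among 7 members called, all negative, beside 3.53% of all genes called negative in that fit.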

How the results depend on the processing

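Direction and call of SLC2A1, HK2 and ALDOC held in every alternative run for oxygen in siControl, for siARNT at 1% O2 and for the interaction, and those of GPI held in the first 2 of these. For oxygen in siControl the number of called members ran from 6 to 8 when single libraries were left out. For oxygen in siARNT it was 1 with DESeq2, with the replicate block and without the 2 libraries of high GC slope, a setting chosen after the data were seen. It was 2 with the GC correction, alone or with the replicate block, and 0 to 1 with single libraries left out. For siARNT at 21% O2 it was 1 with no filter or with only the samples compared, 4 with the replicate block, the GC correction or both, and 1 to 4 with single libraries left out. For siARNT at 1% O2 it was 9 with the GC correction, alone or with the block, and 8 without the 2 libraries of high GC slope. For the interaction it was 7 under each of these 3 settings. Calls over all genes also rose with the GC correction in every comparison, as counted below. For siARNT at 1% O2 they went from 4948 to 7817 of 16999 with it, and to 5868 of 17176 without the 2 libraries of high GC slope. For the interaction they went from 797 to 3082 and to 1612, and for oxygen in siARNT from 696 to 3799 and to 515. The causes were not tested.

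The replicate block is given in the report where the letters were treated as pairing, which is not shown. In the other comparisons it called ALDOC for oxygen in siARNT (0.57, edgeR adjusted p 0.0475), PFKP (-0.34, 0.0387) and ALDOA (-0.8, 0.0412) for siARNT at 1% O2, and PFKP (-0.62, 0.0464) and ALDOA (-1.6, 0.0369) in the interaction. It changed no other call of a member, and a block by siRNA and letter, which assumes that a letter names a well divided between the oxygen levels, changed none.

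Among the 25 other genes, those called for oxygen in siARNT numbered 5 with the replicate block, 12 with the GC correction, 14 with both and 0 with only the samples compared. For siARNT at 21% O2 they numbered 8 with DESeq2, 10 with the GC correction, 12 with it and the block, 3 with only the samples compared and 2 to 5 with single libraries left out. For the interaction they numbered 11 with the block, 13 with the GC correction, 14 with both and 3 to 9 with single libraries left out.

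Over all genes, 696 were called for oxygen in siARNT, against 3799 with the GC correction, 4065 with it and the block, 136 with the block by siRNA and letter, 22 with only the samples compared and 129 to 454 with 1 library left out. For oxygen in siControl 4299 were called, against 7171 with the GC correction and 7436 with it and the block. For siARNT at 21% O2 3431 were called, against 5467 and 5853, and 1571 to 3437 with 1 library left out. For siARNT at 1% O2 4948 were called, against 7817 and 8054. For the interaction 797 were called, against 3082 and 3293, 1495 with scaling by total counts, 373 with the block by siRNA and letter, 1612 without the 2 libraries of high GC slope and 272 to 1188 with 1 library left out. Scaling by total counts moved the median of all genes at most in siARNT against siControl at 1% O2, to 0.104 on the log2 scale.

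Reversals were among values that were not called and that were small or, as for SLC2A3 with siARNT at 21% O2 (-1, SE 1.503), imprecise. With the GC correction, and with it and the block, the oxygen change in siARNT was 0 and 0.02 for PFKL and 0.01 and 0.05 for ALDOA, and siARNT at 21% O2 gave -0.11 and -0.12 for SLC2A1, -0.02 and -0.02 for HK1, and -0.02 and -0.02 for PFKP. Without the 2 libraries of high GC slope, the oxygen change in siARNT was 0.1 for ALDOA, and siARNT at 21% O2 gave -0.13 for SLC2A1, -0.04 for HK1 and -0.08 for PFKM. The GPI splice site gave 0.41 for oxygen in siARNT, -0.24 for siARNT at 21% O2 and 0.16 for the interaction there, and 0.11 for oxygen in siARNT with limma. For siARNT at 1% O2 the ALDOA event gave -0.32 and the PFKM exon -0.05.

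With single libraries left out, the oxygen change in siARNT ran from -0.01 to 0.15 for HK1, -0.27 to 0.11 for GPI, -0.73 to 0.31 for PFKL, -0.16 to 0.05 for PFKM, -0.28 to 0.02 for PFKP and -0.4 to 0.4 for ALDOA. At 21% O2 siARNT gave -0.13 to 0.16 for SLC2A1, -1.51 to 0.01 for SLC2A3, -0.04 to 0.12 for HK1 and -0.08 to 0.1 for PFKM, and at 1% O2 -0.53 to 0.16 for PFKL. The GPI splice site ran from -0.07 to 0.47 for oxygen in siControl, -0.42 to 0.37 for oxygen in siARNT, -0.24 to 0.55 and -0.43 to 0.13 for siARNT at 21% and 1% O2, and -0.67 to 0.12 for the interaction. The ALDOA event ran from -0.51 to 0.06 for oxygen in siARNT and -0.32 to 0.25 for siARNT at 1% O2, where the PFKM exon ran from -0.05 to 0.32.

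Paralog shares depended on the length used, in the order siControl and siARNT at 21% O2, then siControl and siARNT at 1% O2. With the longest coding transcript HK2 held 46.2%, 50.5%, 60.3% and 50.5%, PFKL 3.47%, 6.69%, 5.82% and 6.21%, PFKM 27.5%, 23.5%, 19% and 24.7%, PFKP 69.1%, 69.8%, 75.2% and 69.1%, and ALDOC 4.73%, 2.51%, 6.55% and 3.79%. With no length scaling HK2 held 55.3% in siControl at 21% O2, PFKL 3.48%, 6.75%, 5.92% and 6.25%, PFKM 30.6%, 26.2%, 21.4% and 27.6%, PFKP 66%, 67%, 72.7% and 66.1%, and ALDOC 5.56%, 2.96%, 7.67% and 4.47%. HK2 and PFKP had their highest shares in siControl at 1% O2 with each of these lengths. Depth limits SLC2A3 at 21% O2, with 0 to 3 counts a library.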
